A study of Mus musculus with 24 samples.

Results

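Meis1/Hoxa9-transformed preleukemic mouse cells without functional Tut4 and Tut7 were followed through the first chase hour after metabolic labelling of RNA. The 6 libraries described here carry the cDKO genotype and a chase of 0 or 60 min in their titles, 3 per time, out of 24 libraries in all. Per the study's methods, c-Kit+ fetal liver cells of C57BL/6 mice were transduced with retroviral Meis1 and Hoxa9 and replated serially. Floxed alleles of both Tut4 and Tut7 had been deleted by Vav-iCre, a recombinase driven by a promoter active across blood cells, and control cells carried the floxed alleles without Vav-iCre. All cells received 2.9 µM 4-thiouridine (4SU) for 12 h and were then moved to medium without it. The control libraries at 0 and 60 min, 3 each, enter only as a comparison.

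TUT4 and TUT7 belong to the terminal uridylyl transferases. They attach U residues at RNA 3′ ends, which marks messenger RNAs with short poly(A) tails for decay. 4SU is built into RNA as it is made. Once alkylated, it appears in the reads as a T-to-C change. The percentage of covered T positions with that change is called the conversion rate here. It depends on how much of a transcript was made during labelling and on how much 4SU was built in. During the chase that rate falls when labelled molecules decay and also when unlabelled molecules are made. Loss of label means here a fall of that rate by either route. In the first hour only short-lived transcripts lose much of their label, and these are typically messages of transcription factors, signalling regulators and cytokine responses.

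The 6 libraries held 4380238 to 5666553 reads within 3′UTRs, and 89786403 to 115298850 covered T positions. No pair of replicates was as close as repeat counts of 1 library would be (chi-square per degree of freedom of 6.41 to 28.1). Library 2 at 0 min stood furthest apart from its group. Of 7247 genes with at least 20 CPM (reads per 1000000 reads in 3′UTRs) in some 0 min library, 332 lay more than 2-fold beyond both other 0 min libraries there, 305 of them below. The same count was 13 in library 1 and 165 in library 3. At 60 min the count was 10, 136 and 154 of 7156 genes in libraries 1, 2 and 3. Progenitor markers were read in all libraries (15 of 15 genes, summed 8082 to 10770 CPM), but that sum includes Hoxa9, a transduced gene. Of 12 mast cell and basophil markers 6 were at 0 at both times. That list still summed 164 to 322 CPM, with Gata2, Cpa3 and Hdc highest. Erythroid markers summed 1631 to 2263 CPM, with Hbb-bt and Tfrc highest. No gene of the 8 marker lists was called in the abundance comparison below. Hoxa9 and Meis1 were both transduced by retrovirus. Hoxa9 had 4592, 5044 and 6543 CPM at 0 min and 4577, 4197 and 5564 CPM at 60 min. Meis1 was below 2 CPM on average at both times. Only reads within 3′UTR intervals were counted, so transgene RNA without that 3′UTR would be missed. Since the batch in the labels is the chase time itself, time and batch cannot be told apart in any comparison that follows.

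The reads left over the deleted genes were examined first. Tut4, whose 3′UTR lies at 108558786 to 108559415 on the plus strand of chromosome 4 (mm10), had 17.8, 30.2 and 18.6 CPM at 0 min and 31.9, 40.0 and 32.2 CPM at 60 min. Each 60 min library lay above the 0 min libraries, but the log2 change of 0.66 (SE 0.18) was not called (edgeR adjusted p = 0.496). Tut7 had 16.7, 19.2 and 20.2 CPM at 0 min and 22.0, 25.8 and 29.9 CPM at 60 min, a log2 change of 0.47 (edgeR adjusted p = 0.561). In the control libraries at 0 min the lowest values were 68.1 CPM for Tut4 and 34.6 CPM for Tut7, above all of these.

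The label of the whole transcriptome fell little within the hour. In the 3 replicate pairs the library-wide conversion rate was 0.821, 0.845 and 0.542% at 0 min and 0.767, 0.789 and 0.520% at 60 min. The rates left were 93.4, 93.3 and 95.9% of the start, a mean log2 change of -0.086 ± 0.022 (SD, n = 3 pairs). All 3 pairs fell, and replicate 3 had the lowest rate at both times. The two-sided exact paired test gave p = 0.25, the smallest that 3 pairs allow. Control pairs kept 91.5, 90.9 and 89.4%, a mean log2 change of -0.143. The mean loss was thus smaller by 0.056 in cDKO, with no overlap between the 3 and 3 pairs (exact permutation test, two-sided, p = 0.1, which is the lower limit for 3 against 3). In control the pairs rest on the replicate number alone, as same-numbered libraries did not correlate in abundance (-0.019, -0.003 and 0.005). Control libraries began at 1.62 to 1.67%, and the part of this unequal start in the difference was not tested.

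**Figure D1:**
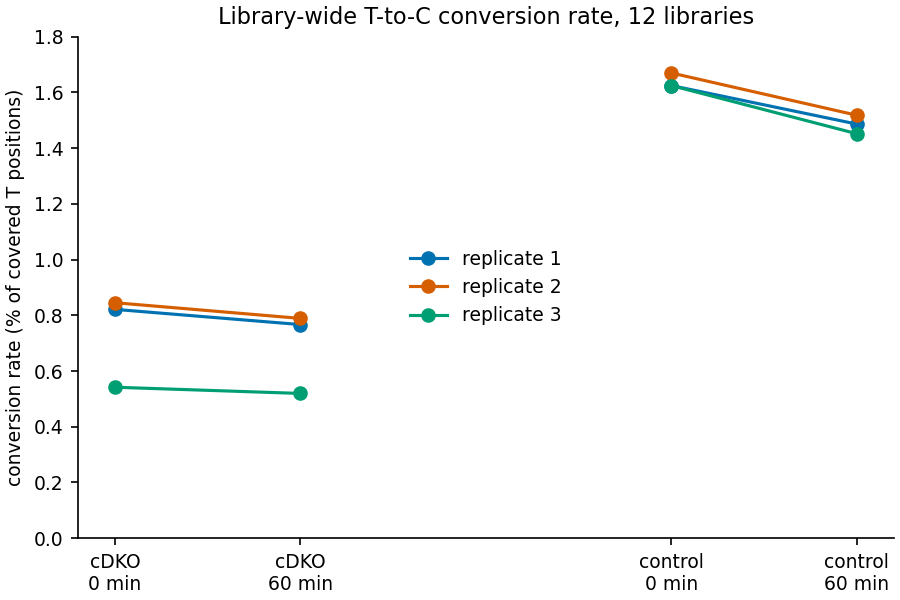
Library-wide conversion rate (percent of covered T positions read as C) in the 6 cDKO and 6 control libraries at 0 and 60 min, with lines joining libraries of the same replicate number. Each line falls, cDKO replicate 3 lies lowest (0.542 to 0.520%), and the control lines start near 1.65%.

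Read abundance changed in few genes. Genes were compared by the edgeR quasi-likelihood test with the replicate number as a block, and called at an adjusted p under 0.05. Of 10085 genes tested, 6 were called (0.0595%), 5 higher (0.0496%) and 1 lower (0.00992%) at 60 min. At an unadjusted p under 0.05 there were 865 (8.58%). A rise in all 3 pairs, with no test, was seen in 1620 genes (16.1%) and a fall in all 3 pairs in 1623 (16.1%). Without the block 0 genes were called (375 at an unadjusted p under 0.05), and with the sum of all deposited lines of a gene also 0, while leaving out pair 1, 2 or 3 gave 14, 67 or 3. Without pair 3, Fosb, Hlx, Trib1 and Klf6 were not called (edgeR adjusted p from 0.088 to 0.219).

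The genes that rose encode transcription factors and regulators of signalling. Fosb, a subunit of the AP-1 transcription factor and a classical immediate early gene, had 2.06, 0 and 0.657 CPM at 0 min, from 9, 0 and 3 reads. At 60 min it had 19.9, 6.39 and 19.3 CPM. The groups did not overlap, and the log2 change was 4.18 (SE 0.49, edgeR adjusted p = 0.00672), or 5.33 without pair 1. Hlx, a homeobox transcription factor, went from 21.0, 8.65 and 24.1 CPM to 48.5, 27.2 and 62.4 CPM, by 1.39 on the log2 scale (edgeR adjusted p = 0.00672, SE 0.17). Replicate 2 was the lowest at both times for Fosb and Hlx. Trib1, a pseudokinase that directs C/EBPα to degradation, went from 21.5, 21.4 and 25.9 CPM to 48.2, 42.4 and 75.1 CPM, by 1.24 on the log2 scale (edgeR adjusted p = 0.013, SE 0.17). No 60 min library of either gene overlapped the 0 min libraries.

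Txnip and Klf6 were abundant enough for the label to be read beside the rise. Txnip (3′UTR at 96560530 to 96561857 of chromosome 3, plus strand, mm10) encodes an arrestin-like protein that restrains glucose uptake. It had 202, 120 and 188 CPM at 0 min and 353, 341 and 326 CPM at 60 min, a rise of 1.03 in log2 (edgeR adjusted p = 0.00672, SE 0.13). Reads without a conversion went from 149, 88.6 and 166 CPM to 294, 293 and 293 CPM. Reads with a conversion went from 53.6, 31.8 and 21.9 CPM to 59.8, 48.0 and 33.0 CPM. Each pair was higher in both kinds of read, and most of the added Txnip reads held no conversion. The conversion rate fell from 0.911, 0.844 and 0.352% to 0.527, 0.406 and 0.291%, to 60.0% of the start (log2 -0.74, edgeR adjusted p = 1.55e-05).

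Klf6 (3′UTR at 5867284 to 5870393 of chromosome 13, plus strand, mm10), a zinc finger transcription factor, had 114, 124 and 150 CPM at 0 min and 236, 193 and 302 CPM at 60 min. The log2 change was 0.90 (SE 0.11, edgeR adjusted p = 0.00672), with no overlap between times. Reads without a conversion went from 94.1, 101 and 132 CPM to 210, 174 and 279 CPM, while reads with a conversion were at 20.3, 22.4 and 18.6 CPM and then at 25.8, 19.2 and 22.6 CPM. The Klf6 reads with a conversion thus overlapped between the 2 times, and those without one did not. At these low rates a read without a conversion may still come from a labelled molecule. Its conversion rate fell to 55.97% of the start (log2 -0.84, edgeR adjusted p = 0.000737).

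A further set of genes had every 60 min library above every 0 min library without being called. Arrdc3, an arrestin-like protein related to Txnip, had 10.3, 8.29 and 11.4 CPM and then 30.1, 31.2 and 20.7 CPM (log2 1.44, edgeR adjusted p = 0.0771). Dusp6, a phosphatase that inactivates ERK, had 69.0, 38.6 and 70.6 CPM and then 106, 83.3 and 112 CPM (log2 0.79, edgeR adjusted p = 0.0681). Zfp367, a zinc finger protein, had a log2 change of 0.89 (edgeR adjusted p = 0.0863). Jun, the AP-1 partner of Fosb, had 21, 5 and 1 reads at 0 min and 52, 35 and 81 reads at 60 min (log2 2.68, edgeR adjusted p = 0.279). These 4 calls depended on the pairs. Without pair 2 all 4 were called (edgeR adjusted p from 6.53e-06 to 0.00102), without pair 1 all but Arrdc3 (edgeR adjusted p = 0.169), and without pair 3 none (edgeR adjusted p from 0.0863 to 0.38). The log2 change of Jun was 4.10, 2.54 and 1.87 without pair 1, 2 and 3.

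Rpph1 was the single gene called lower. It is the RNA subunit of RNase P, the enzyme that trims the leader of precursor tRNAs, and lies at chromosome 14, 50807447 to 50807771, minus strand (mm10). It had 88.3, 126 and 107 CPM at 0 min and 32.7, 25.6 and 41.9 CPM at 60 min, which is -1.69 in log2 (edgeR adjusted p = 0.00672, SE 0.18). The Rpph1 change was -1.74 in the control libraries, where it went from 33.3, 35.7 and 30.03 CPM to 10.2, 10.7 and 8.41 CPM. The libraries were made with a kit for 3′ ends of messenger RNA, and Rpph1 is not a messenger RNA. Whether its reads follow the level of the RNase P RNA was not tested. Kcnq1ot1, a nuclear long noncoding RNA of an imprinted locus, had 1353, 1204 and 1237 CPM and then 921, 992 and 872 CPM (log2 -0.45, edgeR adjusted p = 0.0857). Gfi1, a transcriptional repressor of granulocyte development, had 188, 158 and 144 CPM and then 110, 126 and 93.6 CPM (log2 -0.57, edgeR adjusted p = 0.171). Mtf1, a metal-responsive transcription factor, and Rnf169, a ubiquitin reader of DNA repair, had log2 changes of -0.70 (edgeR adjusted p = 0.103) and -0.68 (edgeR adjusted p = 0.219). None of these 4 had overlapping groups. In bulk RNA, fewer cells that hold a transcript and less of it per cell cannot be told apart.

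**Figure D2:**
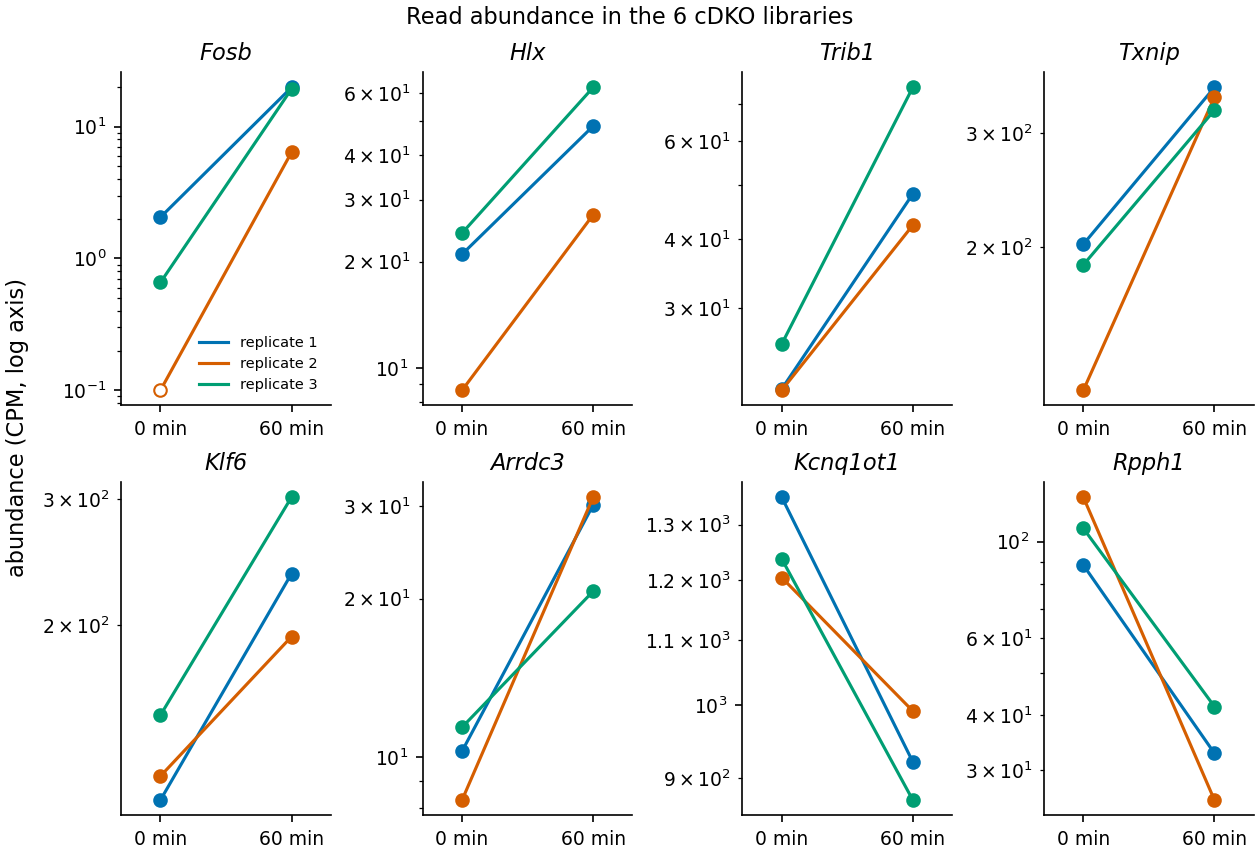
Read abundance in CPM (log axes that do not start at 0 and differ between panels) of 8 genes in the 6 cDKO libraries, with lines joining the 0 and 60 min libraries of a replicate number. All lines of Fosb, Hlx, Trib1, Txnip, Klf6 and Arrdc3 rise and all lines of Kcnq1ot1 and Rpph1 fall. The open circle is Fosb in replicate 2 at 0 min, with 0 reads, drawn at 0.1 CPM.

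Label loss was called in more genes than a change in abundance with all 3 pairs. This order turned without pair 2 (51 genes for the rate, 67 for abundance) and with all 12 cDKO libraries in the fit (13 and 27). Of 7994 genes with enough coverage, the rate differed in 110 (1.38%). It fell in 109 (1.36%) and rose in 1 (0.0125%). The estimate was lower at 60 min, called or not, in 5373 genes (67.2%). The rate was lower in all 3 pairs in 2064 (25.8%) and higher in all 3 pairs in 616 (7.71%). The median gene kept 91.9% of its rate, the 5th percentile 55.5% and the 95th percentile 136%. The 109 genes kept a median of 60.0%, while their median log2 abundance change was 0.039. Of these, 28 (25.7%) were higher and 21 (19.3%) lower in abundance in all 3 pairs, with no test, against 17.1 and 15.5% of the 7994. At an unadjusted p under 0.05 there were 954 (11.9%). Without the block 0 genes were called (234 at an unadjusted p under 0.05), the sum of all deposited lines gave 5, and leaving out pair 1 or pair 2 gave 55 or 51.

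The lowest p-values came from abundant transcripts with moderate loss. Kcnq1ot1 fell from 1.07, 1.01 and 0.729% to 0.601, 0.626 and 0.430%, leaving 59.0% (log2 -0.76, SE 0.07, edgeR adjusted p = 2.04e-15). No library overlapped between times. Tent5a, a noncanonical poly(A) polymerase and so a relative of the deleted enzymes, fell from 1.15, 1.17 and 0.690% to 0.773, 0.701 and 0.508% (log2 -0.59, SE 0.07, edgeR adjusted p = 1.25e-10). Each Tent5a pair fell, though the groups overlapped because replicate 3 carried less label throughout. Nufip2, an RNA-binding protein, kept 61.9% (edgeR adjusted p = 1.25e-10). Mat2a, which makes S-adenosylmethionine, kept 71.3% (edgeR adjusted p = 4.18e-08).

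Several transcription factors and immediate early genes lost label. Myc, a growth-promoting transcription factor, fell from 1.20, 1.18 and 0.477% to 0.520, 0.505 and 0.216%, to 43.8% of the start (log2 -1.19, SE 0.20, edgeR adjusted p = 8.89e-06). Each pair lost more than 50% of its rate. Its abundance was 159, 33.7 and 139 CPM at 0 min and 121, 127 and 89.8 CPM at 60 min, so that library 2 went the other way from the rest (log2 0.22, edgeR adjusted p = 0.88). Without pair 2 the log2 abundance change of Myc was -0.51 (edgeR adjusted p = 0.00279). Klf10, a zinc finger transcription factor, fell from 1.54, 1.39 and 1.01% to 0.487, 0.505 and 0.214% (log2 -1.74, SE 0.44, edgeR adjusted p = 0.0118). Klf10 reads went from 12.8, 13.4 and 18.9 CPM to 32.1, 29.8 and 27.1 CPM, which was not called (log2 0.99, edgeR adjusted p = 0.279). Ikzf2, the lymphoid and progenitor factor Helios, kept 69.0% (edgeR adjusted p = 4.35e-06), and Gfi1 kept 63.8% (edgeR adjusted p = 0.00343).

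Single regulators of cytokine and NF-kappaB signalling also lost label. Cd69, an early activation antigen, fell from 1.06, 0.652 and 0.540% to 0.231, 0.335 and 0.118%, to 29.4% of the start (log2 -1.77, SE 0.37, edgeR adjusted p = 0.000873). Nfkbia, the inhibitor IkappaBalpha, fell from 1.18, 1.17 and 0.883% to 0.678, 0.601 and 0.491% (log2 -0.86, SE 0.15, edgeR adjusted p = 3.23e-05). No library of Cd69 or Nfkbia at 60 min reached a 0 min library. Pim1, a kinase induced by cytokines, kept 69.7% (edgeR adjusted p = 3.23e-05). Spred1, an inhibitor of Ras signalling, kept 60.9% (edgeR adjusted p = 0.0106). Mcl1, an anti-apoptotic BCL2 family member, kept 65.9% (edgeR adjusted p = 0.00135).

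The largest estimates belonged to genes with few conversions. Gcc1, a Golgi coiled-coil protein, fell by 2.30 in log2 (edgeR adjusted p = 0.0314, SE 0.63) from 69 and 11 conversions at the 2 times. Etaa1, an activator of the checkpoint kinase ATR, fell from 1.19, 1.28 and 1.11% to 0.281, 0.132 and 0.342% (log2 -2.23, SE 0.53, edgeR adjusted p = 0.00631), from 75 and 19 conversions. Hic2, a transcriptional repressor, fell by 2.18 in log2 (edgeR adjusted p = 0.0375, SE 0.61). Zfp946, a zinc finger protein, fell from 0.996, 0.851 and 0.723% to 0.355, 0.316 and 0.0823% on 227 and 59 conversions (log2 -1.84, SE 0.31, edgeR adjusted p = 8.89e-06). Dph2, of diphthamide synthesis, had -1.81 (edgeR adjusted p = 0.0317) and Phf20, a histone reader, -1.62 (edgeR adjusted p = 0.0108). Abundance was called for none of these 6, whose log2 abundance changes lay between -0.28 and 0.39.

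**Figure D3:**
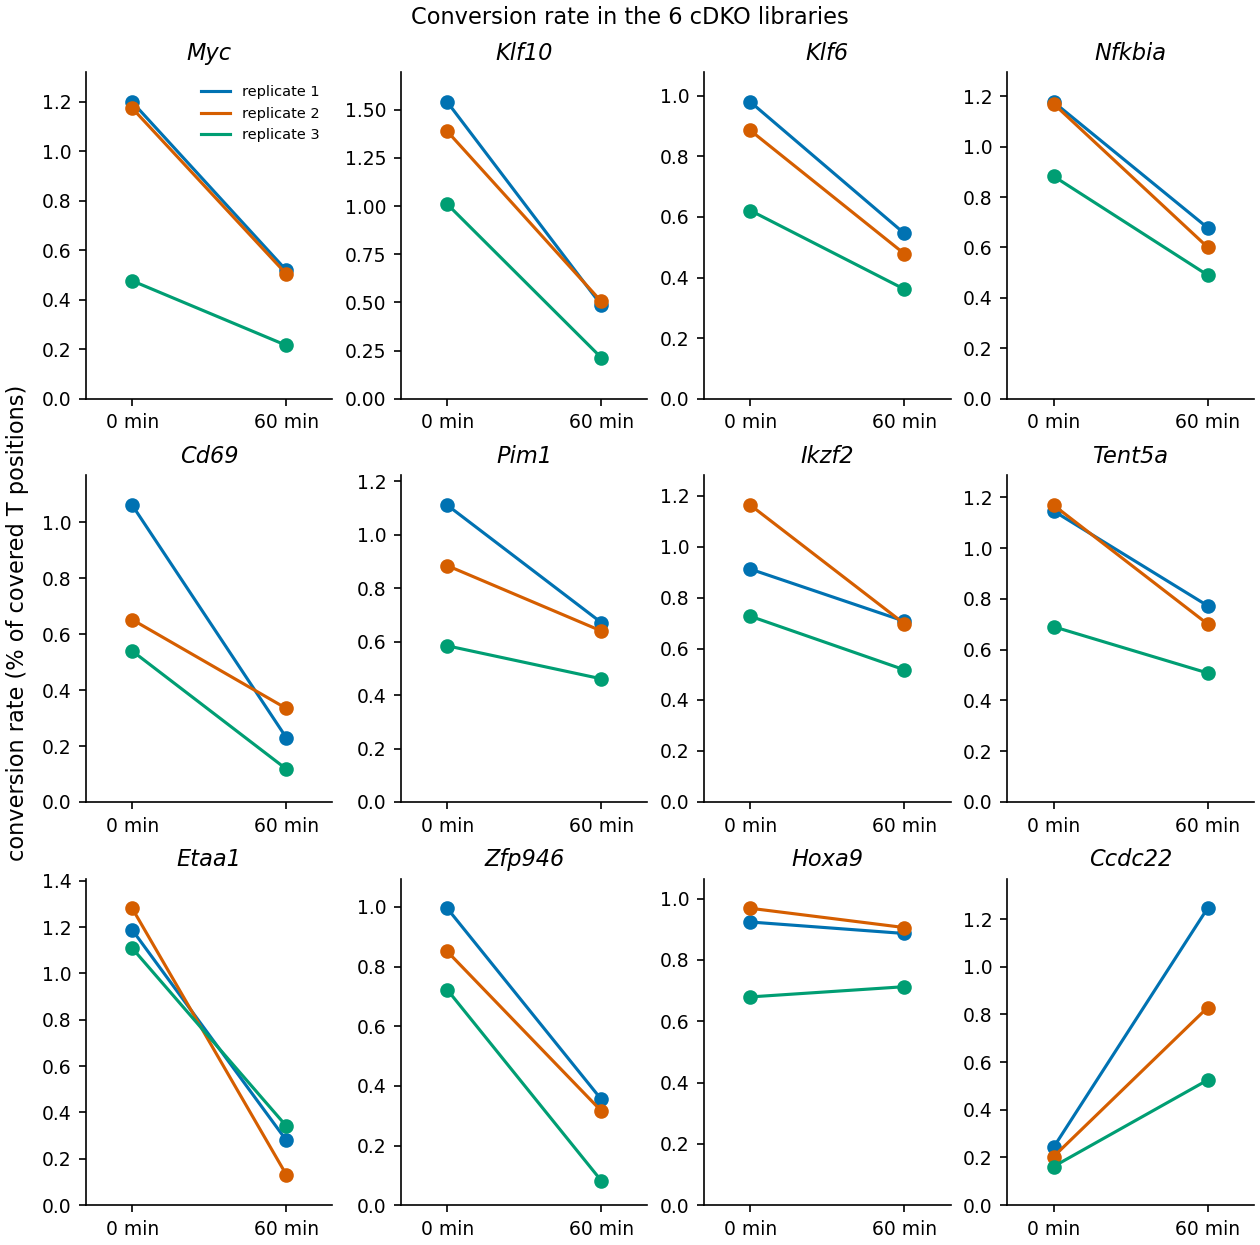
Conversion rate (percent of covered T positions read as C, axes from 0 that differ between panels) of 12 genes in the 6 cDKO libraries, with lines joining libraries of the same replicate number. In the first 10 panels each line falls, Hoxa9 stays within 0.679 to 0.968%, and Ccdc22 rises in each pair.

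Transcripts that lost label were compared by a sequence feature that the comparison did not use. AU-rich elements in 3′UTRs bind proteins that recruit or block the decay machinery, and the heptamer TATTTAT, searched on the transcript strand with overlaps allowed, is a common core of them. Genes were matched to the GENCODE 3′UTR whose length was within 25% of the deposited interval, 6661 of the 7994 (83.3%). Windows of 30 bases with the heptamer in capitals are shown for 4 genes whose rate fell, to set the element in its flanking sequence. They lie on GRCm39 at chr12:55536392-55536421 and chr12:55536203-55536232 (minus strand, Nfkbia), chr6:129244895-129244924 (minus strand, Cd69), chr13:5918489-5918518 (plus strand, Klf6) and chr3:95568193-95568222 (plus strand, Mcl1).
Nfkbia, first of 2: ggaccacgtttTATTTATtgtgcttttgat
Nfkbia, second of 2: tctaagatgtaTATTTATtaaacagatttt
Cd69, 1 site: tctagagttacTATTTATtgccgaatgact
Klf6, first of 2: gctacgtctctTATTTATgccttgaggact
Mcl1, first of 3: gaaaacatgtgTATTTATgaaggtggactt

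The median loss was larger in classes with more heptamers. The median gene kept 93.9% of its rate with 0 heptamers (4648 genes), 89.7% with 1 (1335 genes), 85.2% with 2 (429 genes) and 82.6% with 3 or more (249 genes). The share called lower was 0.968, 1.57, 2.1 and 5.22% in the same order. Genes with more heptamers also had longer 3′UTRs, with medians of 879, 1820, 2590 and 3364 bases. Within each of 4 equal classes of 3′UTR length the median of genes with a heptamer was lower than that of genes without, at 91.8 against 96.4% in the shortest class, 87.7 against 93.4% in the second, 90.2 against 92.4% in the third and 86.1 against 90% in the longest. The share called lower in these classes was 1.42 against 0.197%, 2.32 against 1.06%, 1.35 against 1.3% and 2.67 against 1.92%, so that it was nearly equal in the third class. Within each class genes with a heptamer still had longer 3′UTRs. Their medians were 366 against 263, 874 against 810, 1726 against 1627 and 3494 against 3001 bases. A heptamer was in 43 of the 88 genes called lower that had a sequence (48.9%) and in 30.2% of all 6661. These shares are descriptions, since genes are not replicates. The heptamer was not present in the matched 3′UTRs of Myc, Txnip, Tent5a, Dusp6, Etaa1, Zfp946 or Phf20, whose rates also fell. Txnip reads with a conversion rose in each pair, so a lower rate is not always fewer labelled reads.

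**Figure D4:**
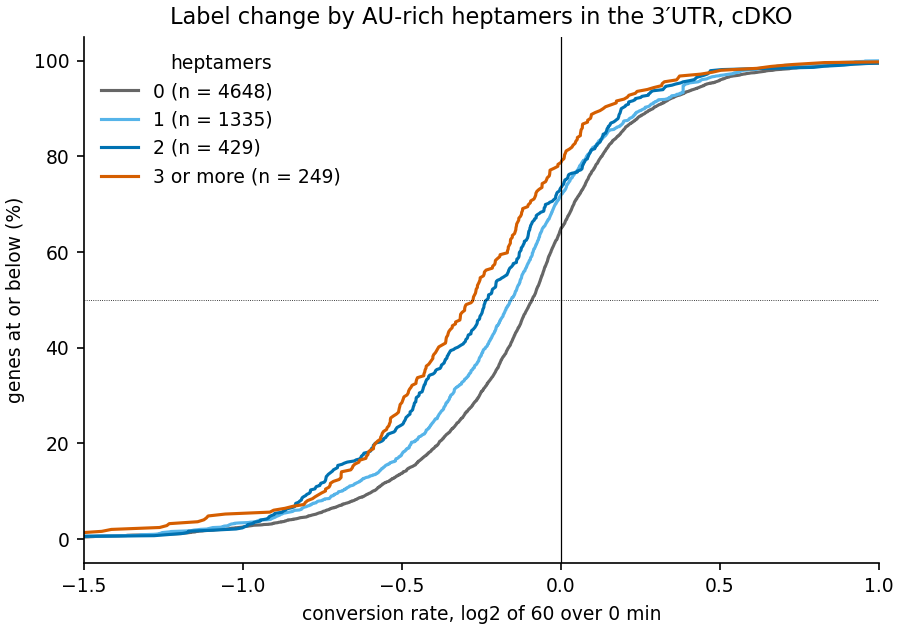
Cumulative share of genes (percent, vertical axis) at or below each log2 change of the conversion rate from 0 to 60 min (horizontal axis, shown from -1.5 to 1) for cDKO genes with 0, 1, 2 or 3 or more AU-rich heptamers in the 3′UTR. The curves shift to the left in that order, with medians of -0.091, -0.156, -0.231 and -0.276.

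A rise in the rate was called only for Ccdc22, a subunit of an endosomal sorting complex. It went from 0.242, 0.203 and 0.162% to 1.25, 0.829 and 0.525% on 19 and 91 conversions (log2 2.05, SE 0.50, edgeR adjusted p = 0.00738). The Ccdc22 rate was below the library-wide rate in each 0 min library and above it in each 60 min library. Its interval overlaps Foxp3 on the other strand, so the reads of these genes may not be separable. To set genes against the transcriptome, the rate was also fitted relative to the library-wide rate. Then 79 genes differed (0.988%), 66 lower (0.826%) and 13 higher (0.163%), and 67 were called in both fits. Leaving out pair 1 lowered the 79 to 10 and pair 2 to 41. Of the higher calls, 13 in this fit, 1 was left without pair 1, 1 without the block, and 0 with DESeq2 or with all deposited lines of a gene (243 and 685 genes of either direction at an unadjusted p under 0.05).

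Among the genes that gained label relative to the library were Usb1, an exonuclease of U6 RNA, and Tmem19, a membrane protein. Usb1 had rates of 0.628, 0.776 and 0.655% and then 1.15, 1.23 and 0.936%, with no overlap (relative log2 0.77, edgeR adjusted p = 0.0254). Tmem19 had 0.632, 0.542 and 0.682% and then 1.68, 0.902 and 1.18% (relative log2 1.06, edgeR adjusted p = 0.0339). Both had each 60 min library above each 0 min library. P4hb, a protein disulfide isomerase, had a relative log2 change of 0.30 (edgeR adjusted p = 0.03), Erp29, an endoplasmic reticulum chaperone, 0.33 (edgeR adjusted p = 0.0313), and Nucb1, a Golgi calcium binder, 0.51 (edgeR adjusted p = 0.0254). Eif3c, of translation initiation, had 0.39 (edgeR adjusted p = 0.0335) and Rps26, of the small ribosomal subunit, 0.27 (edgeR adjusted p = 0.0101). Their plain rates were not called. On the low side, Ska3, a kinetochore protein, Susd6, a membrane protein, and Clk1, a kinase of splicing factors, had relative log2 changes of -1.41, -1.24 and -1.16 (edgeR adjusted p = 0.0241, 0.0208 and 0.00852).

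**Figure D5:**
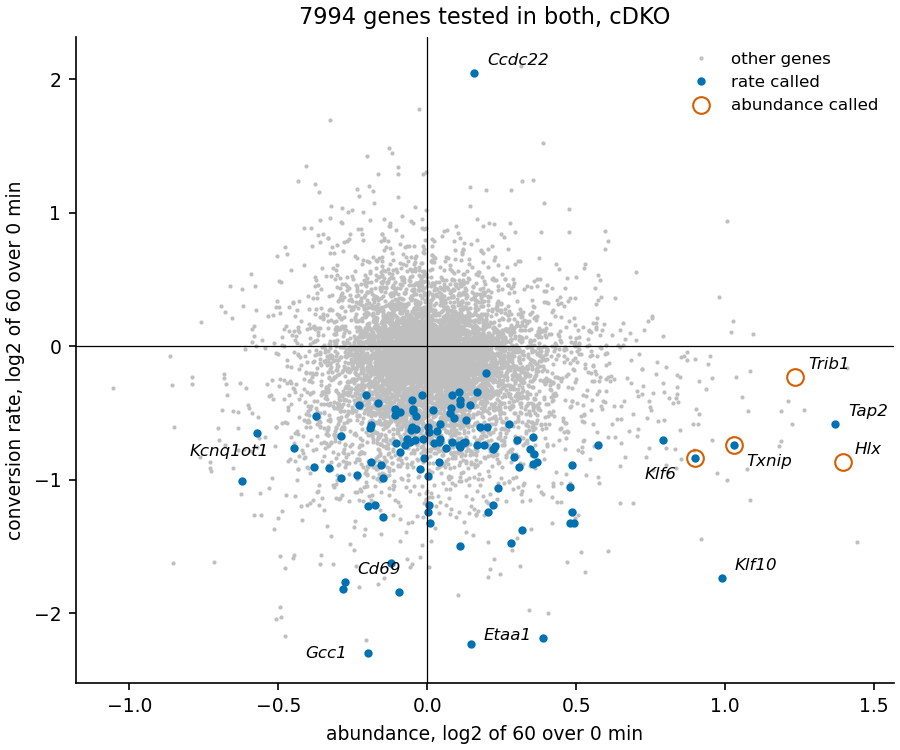
Log2 change from 0 to 60 min of abundance (horizontal) and of conversion rate (vertical) for the 7994 cDKO genes tested in both, with genes whose rate was called in blue and genes whose abundance was called circled in orange. Blue points lie below 0 except Ccdc22 and spread on both sides of 0 in abundance, from -0.62 to 1.37. Fosb and Rpph1, also called in abundance, did not pass the coverage and conversion thresholds of the rate test and so are not drawn.

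The lists of genes with a shared role differed in label more than in abundance. Of 30 immediate early genes tested in abundance, 2 were called higher (Fosb and Klf6) and 15 rose in all 3 pairs (50%, against 16.1% of all genes), with a median log2 change of 0.286 against 0.001. Of 17 with a tested rate, 6 fell (35.3%, against 1.36% of all genes), namely Myc, Klf6, Klf10, Mcl1, Id1 and Rhob, and the median gene kept 78.1%. Of 19 MAP kinase and cytokine feedback genes, 4 fell (Pim1, Cd69, Spred1 and Dusp6) and 15 were lower in all 3 pairs (78.9%, against 25.8%), with a median of 68.4% left. Of 26 myeloid and progenitor transcription factors, 5 fell (Ikzf2, Myc, Gfi1, Fli1 and Runx2) and 19 were lower in all 3 pairs (73.1%), with a median of 74.6% left. Of 12 NF-kappaB and chemokine genes, 2 fell (Nfkbia and Cxcr4), with a median of 91.0% left. The lists were drawn up with earlier results of these data known, and Myc and others stand in more than 1 of them.

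Other lists held single genes that fell or none, beside 1.36% of all genes, a share at which short lists hold few or no calls. Of 9 terminal nucleotidyltransferase and poly(A) polymerase genes, 1 fell (Tent5a), 6 were lower in all 3 pairs (66.7%, against 25.8% of all genes) and the median gene kept 77.7%, against 91.9% of all genes. Of 31 amino acid stress genes, 1 fell, the transporter subunit Slc3a2 (log2 -0.34, edgeR adjusted p = 0.000748), and of 25 glycolysis and hypoxia genes, only Txnip. No gene was called in the rate among 68 ribosomal protein genes (median 100% left), 58 oxidative phosphorylation genes (98.9%), 35 mitosis genes (98.2%), 24 heat shock genes (96.6%), 66 mRNA decay genes (91.9%), 17 interferon response genes (90.1%), 18 p53 targets (86.5%) or 30 DNA replication initiation genes (82.3%). Hoxa9 kept 98.0% of its rate (log2 -0.03, edgeR adjusted p = 0.896).

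The same hour in control cells was compared last. There the abundance test called 332 of 10057 genes (3.3%), 172 higher and 160 lower, and the rate test 767 of 9100 (8.43%), 764 of them lower. All 109 genes whose rate fell in cDKO were tested in control, and 87 were called there, counted without regard to direction. Of all rate calls in control, 3 were higher. Control libraries carried 1.62 to 1.67% label at 0 min against 0.542 to 0.845%, and its part in the counts of rate calls was not tested. Counts of calls in separate fits are not a test between genotypes. The difference of the 2 changes was tested in a fit of all 12 libraries. It was called for abundance in 2 of 10550 genes (0.019%) and for the rate in 1 of 7885 (0.0127%). At an unadjusted p under 0.05 there were 511 (4.84%) and 446 (5.66%). The median gene's rate change was -0.122 in cDKO and -0.172 in control.

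The 3 genes called in the difference were 2 of abundance and 1 of label. Cxcr4, the receptor of the chemokine CXCL12, had cDKO rates of 2.27, 2.51 and 1.95% at 0 min and 1.83, 1.65 and 1.51% at 60 min. In control they were 1.86, 1.72 and 2.005% and then 0.884, 0.772 and 0.790%. Cxcr4 thus kept 73.9% in cDKO (log2 -0.44) and had a log2 change of -1.19 in control, a difference of 0.75 (SE 0.14, edgeR adjusted p = 0.0143). Changes within a genotype come from fits of that genotype alone and the difference from the fit of both, so that they need not subtract exactly. At 0 min its cDKO rate was above the library-wide rate of every cDKO library. Cxcr4 abundance did not pass the test in cDKO, with 136, 119 and 121 CPM and then 105, 116 and 98.8 CPM.

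Ccl3, a chemokine, had 94.5, 25.2 and 214 CPM at 0 min and 86.2, 40.8 and 176 CPM at 60 min in cDKO. In control it had 31.6, 46.0 and 42.3 CPM and then 133, 109 and 109 CPM. The cDKO libraries of Ccl3 overlapped between times and the control libraries did not, and the log2 changes differed by -1.55 (edgeR adjusted p = 0.018, SE 0.22). C2cd4a had 263, 347 and 510 CPM and then 247, 346 and 539 CPM in the cDKO libraries, where neither time stood above the other (log2 change -0.0038). Control libraries held 0, 2 and 5 reads of C2cd4a at 0 min and 18, 13 and 19 reads at 60 min, and the difference was -2.97 (SE 0.45, edgeR adjusted p = 0.018). The level of C2cd4a thus differed between genotypes at both times far more than it changed within the hour. None of the 3 calls held in the fit without the block, where 0 genes were called for either difference (308 and 121 at an unadjusted p under 0.05). Leaving out replicate 1 or 3 of both genotypes also gave 0 for either difference, and leaving out replicate 2 gave 2 for abundance and 0 for the rate.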

How the data were processed

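SLAM-seq 3′-end libraries (QuantSeq FWD) were made and sequenced by the authors, who mapped and tabulated them with SlamDunk (version 0.4.3 per the submitters' processing notes) over 3′UTR intervals of mm10. Per the file headers, the deposited tables hold, for each interval, the counts of reads, covered T positions, conversions and reads that carry a conversion. The deposited conversion rate is a fraction of covered T positions, and the deposited CPM values are relative to filtered reads. Only the counts were used. Rates were recomputed from them, and CPM relative to the 3′UTR total.

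Of 39419 lines per table, 39091 (99.17%) were matched to a gene symbol through a RefSeq table of GRCm38.p6. The longest of overlapping intervals of a gene was kept (29022 intervals, 20868 genes), and counts were summed per gene. Abundance was tested on read counts with edgeR 4.0.16 in R 4.3.3 (TMM, filterByExpr, quasi-likelihood), blocked by replicate number. The conversion rate was tested likewise on conversion counts with the log of coverage as offset, and for the relative fit with coverage times the library-wide rate. A gene entered with 100 or more covered T positions per library and 50 or more conversions over the libraries of the fit. For the genotype difference in the rate, 50 or more conversions were needed in each genotype. Benjamini-Hochberg adjustment ran over all genes tested. Genotype differences were tested as the interaction in 12 libraries, 6 of them control. All p-values assume that the triplicates, called biological in the methods, are independent samples.

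Replicate numbers come from the titles. In cDKO the deviations of abundance from the group mean correlated within a number (0.299, 0.627 and 0.654), so the numbers pair the samples. Those of the gene-wise rate did so weakly (0.042, 0.028 and 0.042), and in control the abundance correlations were -0.019, -0.003 and 0.005. In data simulated for these 6 libraries, the abundance test recovered 91.0% of genes raised and 77.6% of genes lowered by 1 on the log2 scale (9983 genes), and the rate test 69.0 and 42.0% (7994 genes).

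AU-rich heptamers were counted in GENCODE M39 transcripts. Genes named in the text were the called genes with the largest change (mean of at least 10 CPM, or coverage of at least 1000), those with the smallest p per list, and Tut4, Tut7, Hoxa9 and Meis1. The genes named for the lowest p-values of the rate, the printed windows and the genes without a heptamer were chosen after their values were seen. The members and lists were chosen with earlier results of these data known. DESeq2 1.42.0 and other settings served as alternatives. No unlabelled library was used here, and PCR copies of a molecule cannot be told apart in these counts. The results of 1 gene list are not reported here.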

Additional observations from a re-analysis of the deposited data

Results flagged for a closer look

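In 3 genes the change over the first hour differed between the genotypes in the test of the difference itself. The changes in parentheses come from fits of each genotype alone, so that they do not subtract exactly to the difference. The abundance change of Ccl3 was lower in cDKO than in control by 1.55 on the log2 scale (cDKO 0.04, control 1.56, difference -1.55, edgeR adjusted p = 0.018). Replicate 2 had the lowest Ccl3 level of cDKO at both times. The abundance change of C2cd4a differed by -2.97 (cDKO -0.0038, control 3.01, edgeR adjusted p = 0.018), and its control value rests on 0, 2 and 5 reads at 0 min. The change of the conversion rate of Cxcr4 differed by 0.75 (cDKO -0.44, control -1.19, edgeR adjusted p = 0.0143). The part of the unequal label at 0 min in the Cxcr4 difference was not tested.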

How the results depend on the processing

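The library-wide loss kept its direction under all alternatives run (log2 -0.1557 to -0.0573), and no setting of 3 pairs could pass the threshold. Counts of called genes did not hold. Abundance called 6 genes, 0 without the replicate block, 11 with DESeq2, 0 with the sum of all deposited lines of a gene, 108 with no filter on low counts, 27 with all 12 cDKO libraries in the fit, and 3 to 67 with a pair left out. The rate called 110, 0 without the replicate block, 29 with DESeq2, 5 with all lines, 13 with 12 libraries, and 51 to 110 with a pair left out. The rate relative to the library called 79, 31 without the replicate block, 10 with DESeq2, 1 with all lines, and 10 to 56 with a pair left out. The genotype difference in abundance was called in 2 genes, 0 without the replicate block, 1 with DESeq2, 0 with all lines, 6 with no filter, and 0 to 2 with a replicate left out. That in the rate was called in 1 gene, and in 0 without the replicate block, with DESeq2, with all lines or with any replicate left out. In DESeq2, at an unadjusted p under 0.05, 179 genes passed for the last of these. The cause of these moves was not tested. The direction turned for Myc abundance, at -0.51 without pair 2 and 0.69 without pair 3, and for the rate of Hoxa9, which was not called in any fit, at 0.0051 without pair 2, -0.0785 without pair 3 and 0.0035 when reads with a conversion were counted. The other genes for which these alternatives were run kept their direction. The rate of a gene with 50 conversions over 6 libraries is known only coarsely. The lower label of replicate 3 limits every rate.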
